A study of Mus musculus with 2 samples.

Results

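Collagens and laminins were described in 2 total RNA-seq libraries of hippocampus from B6CASTF1/J mice, hybrids of the C57BL/6J and CAST/EiJ strains. The members were all genes whose symbol begins with Col, a number, a and a number, or with Lama, Lamb or Lamc and a number, and that have an annotated protein-coding transcript. This pattern matched 56 of the 55536 genes in the tables. Of these, 44 are collagens and 11 are laminins. The remaining gene, Col4a3bp, encodes the ceramide transfer protein and only carries a collagen-like symbol; it had 26.26 TPM in replicate 1 and 24.56 TPM in replicate 2, and it was set aside from the 55 genes described below. Both libraries belong to 1 group, females 10 days old with no treatment named, and each was made from a pool of 3 females with different animal numbers. They were prepared from 300 ng of total RNA as stranded libraries with ribosomal RNA reduced and with ERCC spike-in RNA. The labels name the tissue as a layer of hippocampus without saying which layer. No treatment, genotype, age or sex differed between the libraries, so the measurements are levels within this tissue and the difference between replicate 1 and replicate 2. A pool hides the spread between animals, and a difference in RNA level in bulk tissue cannot be told apart from a difference in the number of cells that make it.

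Collagens are extracellular proteins in which 3 chains wind around each other over stretches in which glycine recurs as a Gly-X-Y repeat. Fibrillar collagens build the banded fibers of connective tissue and, in the brain, lie mostly in the meninges and around larger vessels. Type IV collagens form the sheet of the basement membrane, to which laminins, heterotrimers of an alpha, a beta and a gamma chain, add a second network that cells bind through integrins and dystroglycan. In brain these sheets surround the vessels and line the surface beneath the meninges, and they are made by endothelial cells, pericytes, fibroblasts and astrocytes. A few collagens, such as the transmembrane Col25a1 and the fibril-associated Col19a1, are known from neurons.

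The repeat that defines collagens is shown here for the coding sequence of 5 members and, for contrast, of a laminin, because it separates the families independently of any level. Each stretch is 54 bases of the coding sequence of the named transcript in GENCODE M21, starting at the longest run of Gly-X-Y repeats, and glycine codons are in capitals.
Col4a1: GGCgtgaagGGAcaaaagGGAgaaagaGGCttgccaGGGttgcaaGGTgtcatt
Col4a2: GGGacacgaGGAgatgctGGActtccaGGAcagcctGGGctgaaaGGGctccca
Col1a1: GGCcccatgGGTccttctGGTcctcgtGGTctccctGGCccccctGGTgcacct
Col25a1: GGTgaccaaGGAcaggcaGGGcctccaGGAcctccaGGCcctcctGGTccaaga
Col19a1: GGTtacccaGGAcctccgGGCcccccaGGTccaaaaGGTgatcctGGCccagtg
Lamb1: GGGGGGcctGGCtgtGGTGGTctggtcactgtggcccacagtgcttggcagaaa
In the collagens a glycine codon opens each of the repeats across the stretch, while the laminin holds 3 such repeats and then none. The longest unbroken run was 338 repeats in Col1a1, 66 in Col4a2, 57 in Col19a1, 40 in Col4a1 and 37 in Col25a1, against 3 in Lamb1. Interruptions of the repeat are a known feature of type IV collagens, and all 6 type IV genes had runs of 39 to 66 repeats, while the 11 fibrillar genes had runs of 216 to 344. All 44 collagens had a run of 10 or more repeats, against 0 of 11 laminins and 26 of 13154 other protein-coding genes with a mean of 1 TPM or more. Glycine codons made up a median of 24.9% of codons in collagens, 8.17% in laminins and 6.30% in those other genes. The exon structure follows the repeat in the fibrillar class: 82.5% of its 647 coding exons have a length that is a multiple of 9 bases and 47.1% are exactly 54 bases long, against 13.6% and 0.430% in the other genes.

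The tables held 29858328 expected counts in replicate 1 and 32275110 in replicate 2, where an expected count is an estimated number of reads for a gene. The members together took 0.152% and 0.144% of the counts in genes. TPM, the abundance per transcript length scaled to the same sum in each library, is used for every level below, and counts are used for the difference between libraries. Neuronal and glial markers of the labelled tissue were all detected, with 478.98 and 619.04 TPM of Slc17a7, a vesicular glutamate transporter, in replicate 1 and replicate 2. Among cells that make basement membrane, the summed TPM of 5 endothelial markers was 77.15 in replicate 1 and 77.42 in replicate 2, of 5 pericyte markers 89.83 and 94.16, of 6 meningeal and perivascular fibroblast markers 133.72 and 123.03, and of 4 smooth muscle markers 17.02 and 12.66. Most of the fibroblast sum was Igf2 (91.73 and 78.09 TPM), while Dcn had 25.95 and 31.01 TPM. By counts, 4 of the fibroblast markers were higher in replicate 1 and 2 in replicate 2. The libraries stood apart in other markers: 4 oligodendrocyte genes summed to 139.83 TPM in replicate 1 and 445.99 TPM in replicate 2, 5 choroid plexus genes to 435.87 and 685.55 TPM, and 3 thalamus genes to 40.54 and 22.98 TPM. Nearly all of the choroid plexus sums was Ttr (422.39 and 670.07 TPM), though by counts all 5 of those genes were higher in replicate 2. The 4 ependyma genes summed to 17.5 TPM in replicate 1 and 15.07 TPM in replicate 2. Glutamatergic neuron, interneuron, astrocyte and microglia lists (microglia 65.35 and 78.59 TPM) had a sum that was higher in replicate 2, by a smaller fold than the oligodendrocyte and choroid plexus lists. Their median log2 ratio of counts, replicate 1 over replicate 2, was -0.46 in 3 glutamatergic neuron genes (1193.29 and 1490.91 TPM), -0.31 in 4 interneuron genes (318.61 and 353.52 TPM) and -0.24 in 4 astrocyte genes (1014.11 and 1157.89 TPM). That median was -0.37 in the choroid plexus genes. The interneuron gene Pvalb had a log2 ratio of -1.44, from 53 and 148 counts. None of these marker genes was at 0 in either library. The part of these differences in the members' levels was not tested.

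Of the 55 members, 36 (65.5%) reached 1 TPM in both libraries, against 59.1% of the 22015 nuclear protein-coding genes. At 10 TPM in both libraries the count was 12 (21.8%), against 36.3%. The median member had 4.19 TPM in replicate 1 and 3.41 TPM in replicate 2, and the median nuclear protein-coding gene had 3.95 and 3.57 TPM. Collagens summed to 349.92 TPM in replicate 1 and 325.18 TPM in replicate 2, and laminins to 92.52 and 88.08 TPM. The levels spanned from 56.9 ± 5.47 TPM for Col4a1 to 0.070 ± 0.014 TPM for Col10a1 (SD, n = 2). Ordered by mean TPM, 13 members stood apart from the next one down, in the sense that their lower library exceeded the higher library of that next gene. The first 3 places, held by Col4a1, Col4a2 and Col1a1, were of this kind. From the sixth to the tenth place, Col3a1, Col25a1, Col9a3, Lamb2 and Lamc1 overlapped their neighbours and have no order beyond the spread between the libraries.

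**Figure D1:**
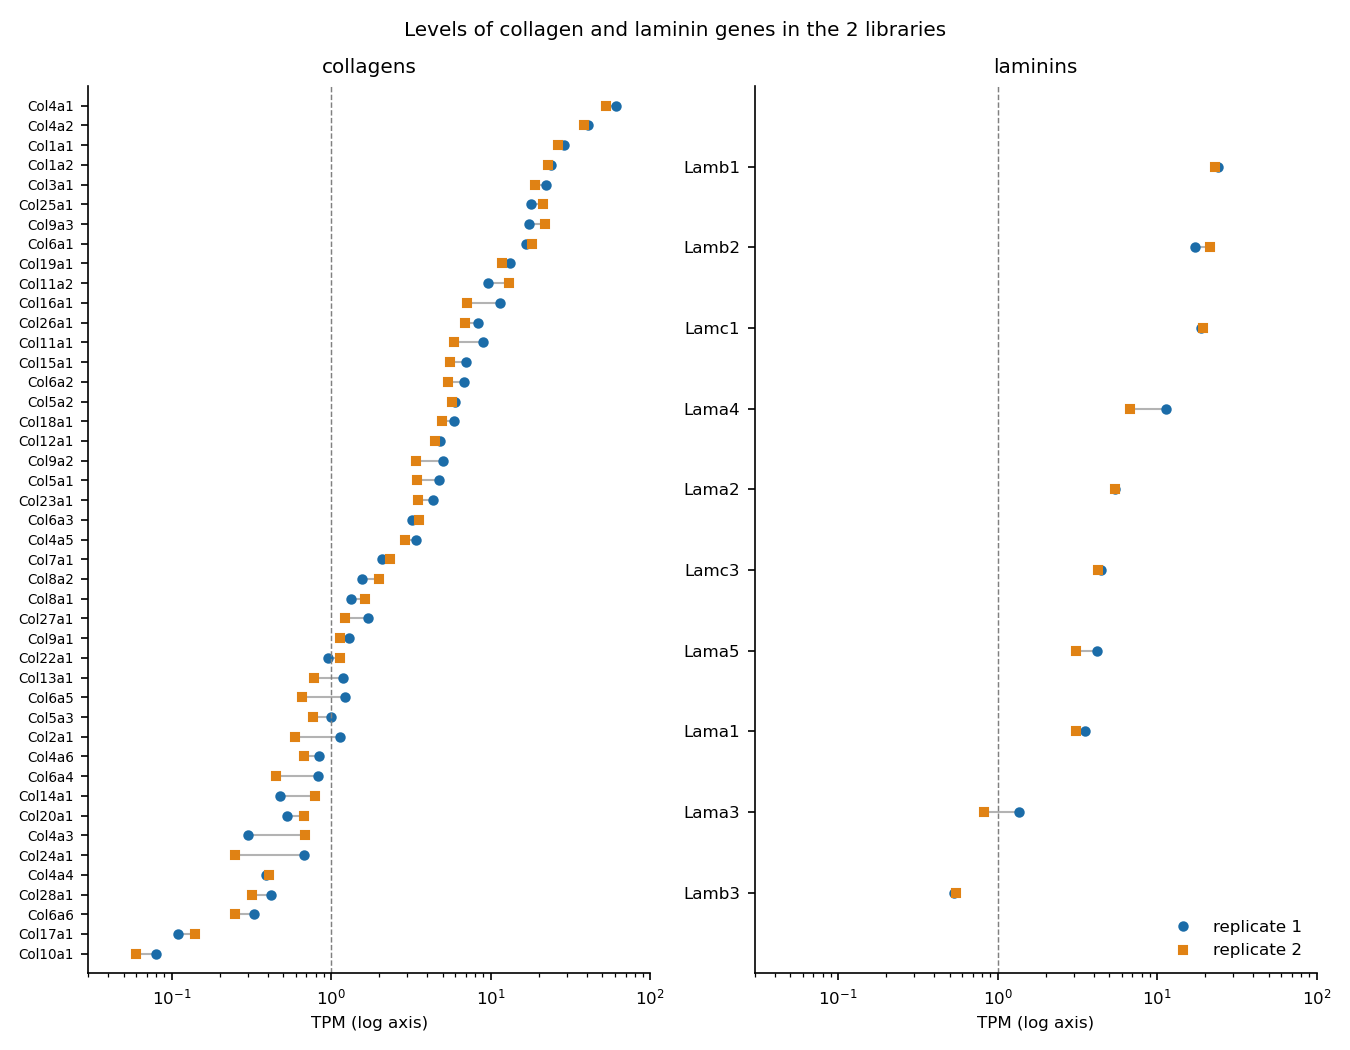
TPM of collagens (left panel) and laminins (right panel) on a log axis, ordered by mean, with circles for replicate 1, squares for replicate 2 and a grey line joining them; the dashed line marks 1 TPM. Col4a1 stands at the top with 60.75 and 53.02 TPM, and the gap between the libraries is widest among members near or under 1 TPM.

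Type IV collagen held the most abundant members. Col4a1, on chromosome 8 from 11198423 to 11312826 (mm10, minus strand), had 60.75 TPM in replicate 1 and 53.02 TPM in replicate 2. Col4a2, its partner chain on the plus strand of the same locus (11312805 to 11449287), had 40.97 and 38.37 TPM. These are the chains of the type IV network found in nearly all basement membranes. Col4a5 had 3.40 and 2.92 TPM, and its neighbour Col4a6 had 0.84 and 0.68 TPM. Col4a3 (0.30 and 0.69 TPM) and Col4a4 (0.39 and 0.41 TPM), chains known from kidney and lung, stayed under 1 TPM in both libraries. Col4a1 was 17.5-fold above Col4a5, the next chain after Col4a2 (log2 ratio of TPM plus 0.1 of 4.13 ± 0.01, SD, n = 2).

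The fibrillar class was led by the type I and type III genes. Col1a1, which encodes the major chain of type I collagen, had 28.95 TPM in replicate 1 and 26.35 TPM in replicate 2, and Col1a2, its partner chain, 23.96 and 22.88 TPM. Col3a1, the single chain of type III collagen in vessel walls, had 22.30 and 18.96 TPM. In TPM, all 3 were thus higher in replicate 1, by less than 4 TPM. Their log2 ratios of counts, replicate 1 over replicate 2, were 0.04 for Col1a1, 0.02 for Col1a2 and 0.12 for Col3a1. Of these 3, only Col3a1 passed the adjusted p in the comparison of the libraries below. Chains of the regulatory types V and XI, which set fiber diameter, came next: Col11a2 had 9.64 and 13.04 TPM, Col11a1 9.01 and 5.92 TPM, Col5a2 5.94 and 5.69 TPM and Col5a1 4.74 and 3.43 TPM. In the type XI pair, the gene TPM of Col11a1 was higher in replicate 1 and that of Col11a2 in replicate 2. Col27a1 had 1.71 and 1.22 TPM. Col2a1, the main collagen of cartilage, had 1.13 and 0.59 TPM.

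Fibril-associated collagens, which sit on the surface of fibers or in basement membrane zones, were unevenly expressed. Col9a3, an alpha chain of type IX collagen, had 17.26 TPM in replicate 1 and 21.79 TPM in replicate 2, while its partner chains Col9a2 (5.00 and 3.41 TPM) and Col9a1 (1.29 and 1.13 TPM) were far lower. Col19a1, which hippocampal interneurons are known to make, had 13.19 and 11.77 TPM. Col16a1 had 11.38 and 7.14 TPM, Col12a1 4.79 and 4.5 TPM, and Col22a1, known from muscle-tendon junctions, 0.95 and 1.14 TPM. Col14a1, a close relative of Col12a1, had 0.48 and 0.79 TPM.

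Of the type VI chains, which form beaded filaments around cells, Col6a1 had 16.62 TPM in replicate 1 and 18.02 TPM in replicate 2, Col6a2 6.84 and 5.40 TPM, and Col6a3 3.22 and 3.57 TPM. The later type VI genes Col6a4, Col6a5 and Col6a6 had mean levels under 1 TPM. Among transmembrane collagens, Col25a1, a neuronal collagen first isolated from amyloid plaques, had 17.95 TPM in replicate 1 and 21.17 TPM in replicate 2. Its relative Col23a1 had 4.34 and 3.52 TPM, 4.89-fold less on average. Both multiplexins, basement membrane collagens whose ends are cut into endostatin-like fragments, were detected, Col15a1 at 7.01 and 5.55 TPM and Col18a1 at 5.91 and 4.92 TPM. Col26a1 had 8.31 and 6.90 TPM. Col7a1, the collagen of anchoring fibrils in skin, had 2.09 and 2.32 TPM. The short-chain network genes Col8a2, with 1.56 TPM in replicate 1 and 1.98 TPM in replicate 2, and Col8a1, with 1.33 and 1.63 TPM, encode the chains of the hexagonal network under vascular and corneal endothelium; both were higher in replicate 2.

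The other 17 members had mean levels from 0.070 to 0.980 TPM. They included Col13a1, Col6a5, Col5a3, Col2a1, Col4a6, Col6a4, Col14a1, Col20a1, Lamb3, Col4a3, Col24a1, Col4a4, Col28a1, Col6a6, Col17a1 and Col10a1. Col10a1, the collagen of hypertrophic cartilage, had 5 and 4 counts and was the single member with too few counts to be tested between libraries. Col17a1, a hemidesmosome component of skin, had 12 and 7 counts. The value of Col20a1 is uncertain, because its exons share 79 bases with a gene on the same strand, BX649560.1, which held 290 and 317 counts beside the 35 and 52 counts of Col20a1. Both counts of Col20a1 were whole numbers, so no split of reads with that gene was visible.

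By class, fibrillar collagens held 31.2% of the summed collagen TPM in replicate 1 and 30.5% in replicate 2, and the type IV network 30.5% and 29.5%. Fibril-associated collagens followed with 15.9% ± 0.30 (SD, n = 2), type VI with 8.51% ± 0.29, transmembrane collagens with 7.31% ± 0.80, multiplexins with 3.46% ± 0.33, the class of other collagens (Col7a1, Col26a1 and Col28a1) with 3.01% ± 0.11, and short-chain network collagens with 0.989% ± 0.20. The fibrillar share was above the type IV share in each library, by no more than the spread between the libraries. In counts, which weigh long transcripts more, the order of those classes turned round, with 35.4% ± 0.25 for type IV and 33.6% ± 1.29 for fibrillar collagens. It also turned round in a second deposited transcript table summed per gene, called read-based here, with 32.9% ± 0.37 and 28.8% ± 2.03. That type IV share included the short transcript Col4a1-203, of 545 bases, with 31.8 TPM in replicate 1 and 29.3 TPM in replicate 2. Fibrillar genes held short transcripts there too, such as Col3a1-205, of 737 bases, with 9.42 and 3.38 TPM. When short transcripts were left out of the TPM used for levels, as described below, the order did not turn round. The mean shares were then 29.8% for type IV and 31.6% for fibrillar collagens.

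**Figure D2:**
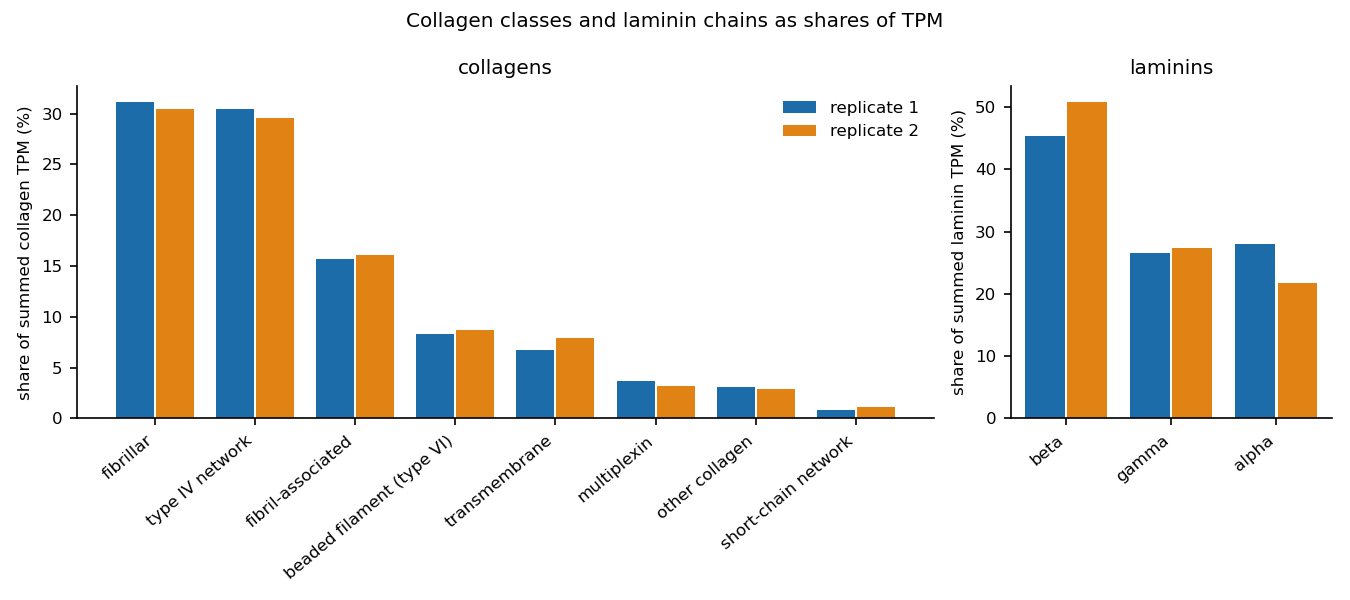
Share of the summed collagen TPM held by each collagen class (left panel) and of the summed laminin TPM held by the beta, gamma and alpha chains (right panel), with blue bars for replicate 1 and orange bars for replicate 2. Fibrillar and type IV collagens hold about equal shares near 30%, and the laminin alpha share is lower in replicate 2 (21.8%) than in replicate 1 (28.1%). The short transcript Lama4-207, of 511 bases, enters that share with 3.50 TPM in replicate 1 and 0.83 TPM in replicate 2.

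Among laminins, Lamb1, Lamb2 and Lamc1 had the highest levels. Lamb1 had 24.22 TPM in replicate 1 and 22.98 TPM in replicate 2, Lamb2 17.25 and 21.28 TPM, and Lamc1, the gamma chain of most laminins, 18.92 and 19.31 TPM. Lamc3 had 4.46 and 4.25 TPM. All 5 alpha chains were detected above 0.8 TPM. Lama4, the alpha chain of vascular basement membranes, had 11.41 and 6.74 TPM, Lama2, the chain known from muscle, Schwann cells and brain pericytes and astrocytes, 5.44 and 5.42 TPM, Lama5 4.19 and 3.12 TPM, Lama1, an early embryonic and meningeal chain, 3.55 and 3.09 TPM, and Lama3, an epithelial chain, 1.37 and 0.82 TPM. Lamb3, a beta chain known from epithelia, had 0.53 and 0.55 TPM, the lowest of the beta chains. Beta chains made up 48.1% ± 3.87 of the summed laminin TPM, gamma chains 26.9% ± 0.56 and alpha chains 24.9% ± 4.43 (SD, n = 2). In TPM, gamma and alpha chains did not stand apart, since the alpha share was the higher of them in replicate 1 (28.1% against 26.5%). Each laminin trimer holds 1 chain of each kind. By counts the shares were closer to each other, with 37.6% ± 1.13 for beta, 34.2% ± 0.70 for gamma and 28.2% ± 1.83 for alpha chains. The gamma share by counts was above the alpha share in replicate 1 (33.7% against 29.5%) and in replicate 2 (34.7% against 27.0%). In the read-based table it was likewise above, with 28.6% against 25.5% in replicate 1 and 29.2% against 18.7% in replicate 2.

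Some of these levels rest on short annotated transcripts, to which TPM gives a large weight per read. Over the 55 members, transcripts under 1000 bases held 13.1% of TPM in replicate 1 and 12.4% in replicate 2, but 1.27% and 1.09% of the counts. Over all nuclear protein-coding genes, transcripts under 1000 bases held 27.7% and 26.9% of TPM and 5.81% and 5.64% of counts. At a mean of 1 TPM or more, 12666 of 13244 of those genes had TPM above 0 on longer transcripts, against 38 of 38 members. The shares over those genes thus include genes with short transcripts only. Leaving short transcripts out was chosen after the values were seen. In Lamb2, a protein-coding transcript of 345 bases had 12.7 and 42.6 expected counts of the gene's 1317 and 1350, yet held 14.4% and 35.9% of its TPM. On transcripts of 1000 bases or more, Lamb2 had 11.13 TPM in replicate 1 and 10.17 TPM in replicate 2, in place of 17.25 and 21.28 TPM. In Lama4, the retained-intron transcript Lama4-207 of 511 bases held 30.7% and 12.3% of TPM from 29.8 and 7.71 counts, and the long transcripts had 7.72 and 5.79 TPM. In Col4a1, 5 short transcripts added 14.57 TPM in replicate 1 and 9.01 TPM in replicate 2, mostly through Col4a1-203 of 545 bases, and the long ones had 46.19 and 44.01 TPM. Col16a1 had 5.47 and 4.15 TPM on long transcripts, less than its 11.38 and 7.14 TPM in full. Col11a2 had 8.05 and 8.19 TPM on long transcripts, so that the higher value of replicate 2 in its gene total came from the short ones.

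**Figure D3:**
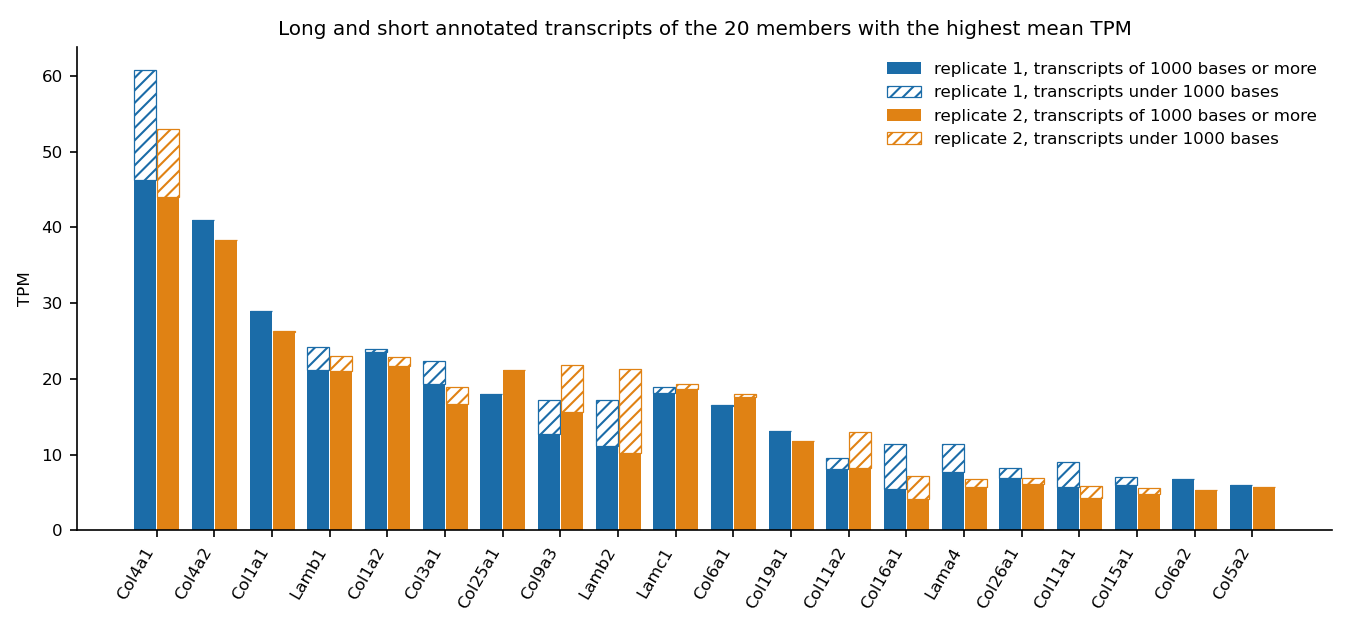
TPM of the 20 members with the highest mean, with blue bars for replicate 1 and orange bars for replicate 2, solid for transcripts of 1000 bases or more and hatched for shorter ones. The hatched part is large in Col4a1, Lamb2, Col9a3, Col16a1, Lama4 and Col11a1 and absent in Col4a2, Col25a1, Col19a1 and Col6a2.

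In the 38 members with a mean of 1 TPM or more, the leading transcript by mean TPM held a median of 75.5% of the gene's TPM, against 65.9% over protein-coding genes. By mean TPM of the libraries it was protein-coding in all 38, whereas 7.43% of protein-coding genes at that level were led by another kind of transcript. The read-based table named the same leading transcript for 35 of 38 members (92.1%), against 77.7% of those genes. The exceptions were Col9a3, Col16a1 and Col19a1. Col19a1 was divided between the protein-coding Col19a1-201 (5.51 TPM in replicate 1 and 6.18 TPM in replicate 2) and the processed transcript Col19a1-203 of 5441 bases (5.86 and 4.78 TPM), which led in the read-based table. Col25a1 was divided between 3 long transcripts. The protein-coding Col25a1-202 had 6.95 TPM in replicate 1 and 8.44 TPM in replicate 2, Col25a1-204, annotated as a target of nonsense-mediated decay, had 5.62 and 7.82 TPM, and the shorter coding Col25a1-201 had 4.70 and 4.55 TPM. Over all members, protein-coding transcripts held 86.0% ± 1.5 of TPM, retained-intron transcripts 6.91% ± 0.31, processed transcripts 3.60% ± 0.50 and nonsense-mediated decay transcripts 3.5% ± 0.69 (SD, n = 2).

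Chains that assemble together, or stand in for each other, were compared within each library as 19 pairs by the log2 ratio of TPM plus 0.1. With 2 libraries the smallest p of an exact sign test is 0.5, so the ratios are given without a test. The first gene of the pair was higher in both libraries in 11 pairs, the second in 6, and the sign differed between libraries in 2. Among partner chains, Col4a1 was above Col4a2 by a log2 ratio of 0.57 in replicate 1 and 0.47 in replicate 2. On long transcripts that ratio shrank to 0.17 and 0.20, 1.14-fold on average. Col1a1 was above Col1a2 by 0.27 and 0.20 (1.18-fold on average), but in the read-based table the ratio was -0.06 and 0.01. Type I trimers use the Col1a1 chain in excess of the Col1a2 chain. Col6a1 was above Col6a2 by 1.27 and 1.72, and Col9a2 was below Col9a3 by ratios of -1.77 and -2.64. Col5a1 was below Col5a2 by -0.32 and -0.71.

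Some pairs moved with the short transcripts. Col4a3 over Col4a4, both under 1 TPM, was -0.29 in replicate 1 and 0.63 in replicate 2 over all transcripts and -0.71 and -0.67 on long ones. Lamb1 over Lamb2 was 0.49 in replicate 1 and 0.11 in replicate 2 over all transcripts, and 0.92 and 1.05 on long ones, a 1.98-fold difference on average. Lamb2 over Lamc1 was -0.13 and 0.14 over all transcripts and -0.70 and -0.87 on long ones, so that Lamb2 was below Lamc1 by 1.72-fold on average. Among alpha chains, Lama4 was above Lama5 by 1.42 and 1.09, and Lama2 was below Lama4 by -1.05 and -0.31, on long transcripts by -0.53 and -0.09. Lamc1 was above Lamc3 by 2.06 and 2.16, or 4.31-fold on average. The pairs Col18a1 over Col15a1 and Lama5 over Lama1 lay close to 0, and their signs changed with the transcripts or the table used.

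**Figure D4:**
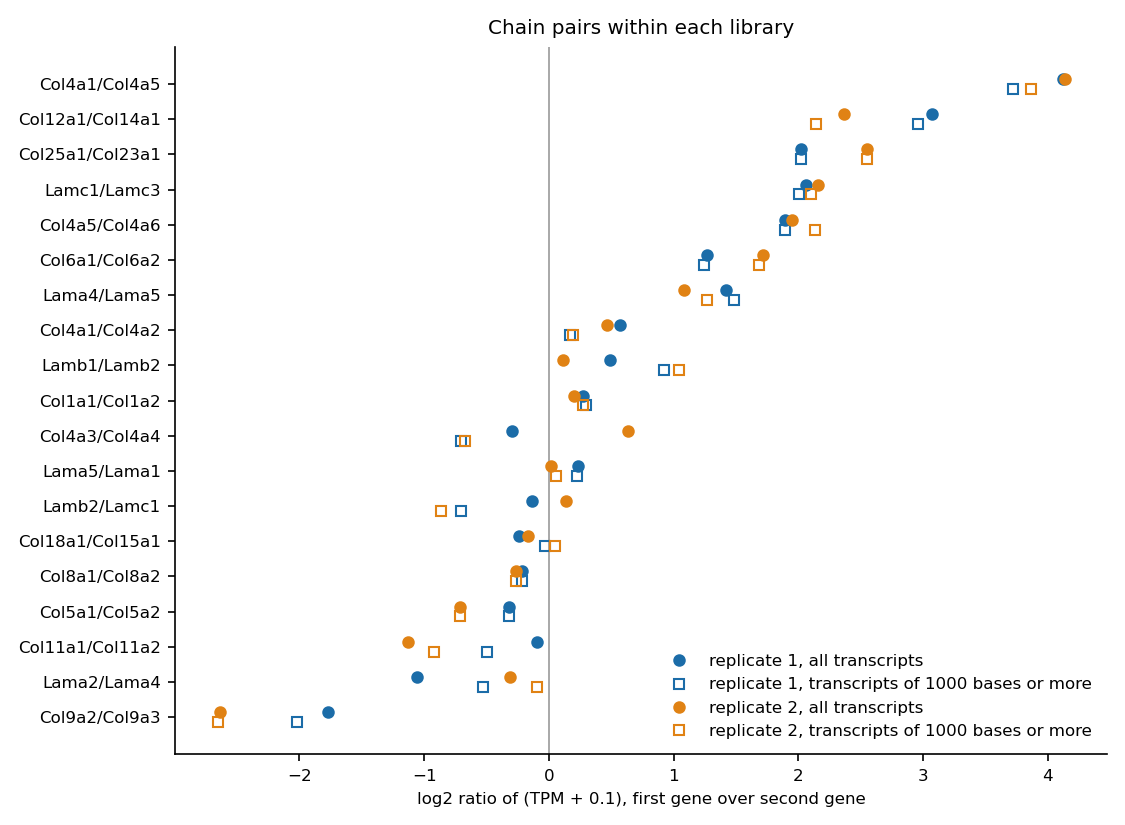
Log2 ratio of TPM plus 0.1 of the first gene over the second in 19 chain pairs, with filled circles for all transcripts and open squares for transcripts of 1000 bases or more, in blue for replicate 1 and in orange for replicate 2. The squares of Lamb1/Lamb2 lie near 1 and those of Lamb2/Lamc1 below 0, while the circles of both pairs lie near 0.

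The libraries were compared gene by gene on counts, with an exact two-sided conditional binomial test and Benjamini-Hochberg adjustment over 20544 genes, and a gene was called at an adjusted p under 0.05 and a log2 ratio of at least 1 in size. This test sets 2 libraries side by side and has no replicate check. None of the 54 members tested was called, against 2.83% of all genes tested (2.26% with replicate 1 above and 0.574% with replicate 2 above) and 1.25% of protein-coding genes tested. By the adjusted p alone, 17 of 54 (31.5%) passed this exact test, 10 higher in replicate 1 and 7 higher in replicate 2. This is near the 27.1% of all genes (11.5% with replicate 1 above and 15.7% with replicate 2 above) and the 29.9% of protein-coding genes. At an unadjusted p under 0.05 the exact test passed 27 members, against 35.8% of all genes. The median log2 ratio of the members was 0.11 and their median ratio in size was 0.24, against 0.01 and 0.19 over all genes tested. Over protein-coding genes tested these medians were -0.03 and 0.15.

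Most of the 17 were moderate in size. Col25a1 had 1659 counts in replicate 1 and 2199 counts in replicate 2, a log2 ratio of -0.37 with a 95% exact counting interval of -0.47 to -0.28 (exact test, adjusted p = 4.20e-14). Col9a3 had 753 and 1020 counts, a log2 ratio of -0.40 (-0.54 to -0.27; exact test, adjusted p = 7.38e-08). Both were higher in replicate 2, the library with more of the oligodendrocyte, choroid plexus, interneuron, astrocyte and glutamatergic neuron marker RNA. Col5a1 had 813 and 646 counts, a log2 ratio of 0.36 (0.21 to 0.52; exact test, adjusted p = 1.72e-05), and Lama4 had 908 and 771 counts, a log2 ratio of 0.27 (0.13 to 0.41; exact test, adjusted p = 0.001). These genes were higher in replicate 1, the library with more of the thalamus and smooth muscle marker RNA. The 5 endothelial and 5 pericyte markers were instead all higher in replicate 2 by counts, with median log2 ratios of -0.12 and -0.18. The part of those markers' cells in these ratios was not tested. The other passing genes higher in replicate 1 included Col3a1, Col16a1, Col11a1, Col6a2, Lama3, Col6a4 and Col24a1, and those higher in replicate 2 were Col8a1, Col8a2 and, with a direction that spike-in scaling turned round, Lamb1, Col6a1 and Col6a3. In TPM, Lamb1 was instead higher in replicate 1 (24.22 TPM, against 22.98 TPM in replicate 2). Col24a1 (60 and 31 counts, log2 ratio 0.98) came nearest to the fold threshold. Counting intervals and these tests cover counting error only, since reads are not independent molecules.

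**Figure D5:**
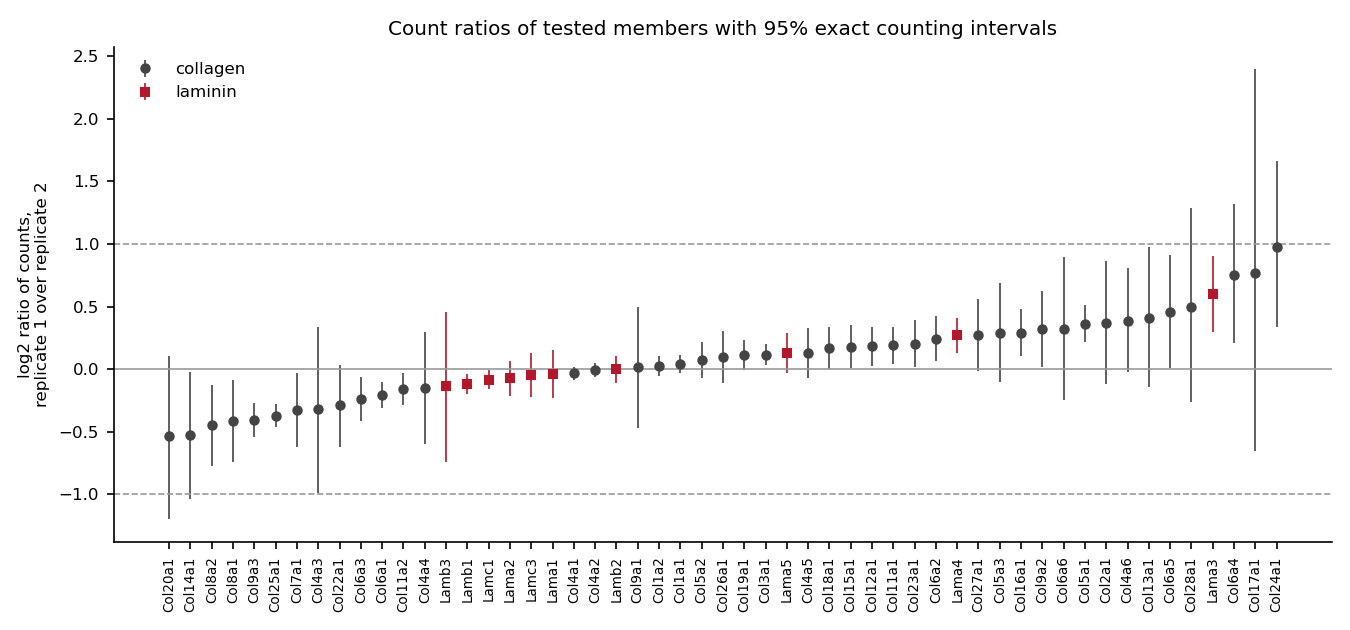
Log2 ratio of counts, replicate 1 over replicate 2, of the tested members in order of size, with grey circles for collagens, red squares for laminins and bars for the 95% exact counting interval; dashed lines mark a log2 ratio of 1 in either direction. All points lie between the dashed lines, from -0.53 for Col20a1 to 0.98 for Col24a1, and the abundant chains Col4a1, Col4a2, Col1a2 and Lamb2 lie within 0.05 of 0.

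The ratios of TPM between libraries were wider than those of counts for several members. Of the 38 members with a mean of 1 TPM or more, 4 (10.5%) were at least 1.5-fold apart in TPM, against 5.06% of nuclear protein-coding genes at that level. These were Lama4 (1.69-fold), Lama3 (1.67-fold), Col16a1 (1.59-fold) and Col11a1 (1.52-fold), all higher in replicate 1. On transcripts of 1000 bases or more, Lama3 alone remained past that fold, and Lama4 was 1.33-fold, Col16a1 1.32-fold and Col11a1 1.32-fold apart. In counts, Lama4 was 1.21-fold, Lama3 1.52-fold, Col16a1 1.22-fold and Col11a1 1.14-fold higher in replicate 1. The log2 ratio of TPM differed from that of counts by 0.5 or more in 0 of the 38 members, against 1.28% of nuclear protein-coding genes at that level.

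Other genes of the basement membrane and of collagen assembly were taken from 4 lists. Of 22 basement membrane partners, 21 reached 1 TPM in both libraries, where 59.1% of nuclear protein-coding genes did, and none was called between the libraries, against 2.83% of all genes. By the adjusted p of the exact test alone, 6 were higher in replicate 1 and 3 in replicate 2, where 11.5% and 15.7% of all genes tested were. The highest were Sparc, a collagen-binding matrix protein, with 165.55 TPM in replicate 1 and 190.69 TPM in replicate 2, Agrn, which encodes the proteoglycan agrin, with 114.56 and 105.61 TPM, Fn1, fibronectin, with 57.05 and 36.31 TPM (log2 ratio of counts 0.58; exact test, adjusted p = 5.60e-88), and Egfl7, an endothelial matrix protein, with 44.62 and 45.65 TPM. Of 34 genes of collagen biosynthesis, 30 reached 1 TPM in both libraries, against the same 59.1%, and 1 was called, against 2.83% of all genes. By the adjusted p of the exact test alone, 4 were higher in replicate 1 and 2 in replicate 2, against the same 11.5% and 15.7%. Ppib, a prolyl isomerase of the endoplasmic reticulum, had 117.45 and 110.95 TPM, Mia3, a receptor that loads collagen into transport carriers, 111.30 and 106.76 TPM, P4hb, a subunit of prolyl hydroxylase, 70.50 and 70.44 TPM, and Sec23a, a coat protein of those carriers, 54.92 and 52.56 TPM. By counts, Sec23a (3621 and 3807) was above Mia3 (2573 and 2543), and the weight of short transcripts in these TPM was not examined. The single call was Lox, the collagen cross-linking oxidase, with 1.29 TPM in replicate 1 and 0.55 TPM in replicate 2 (log2 ratio 1.12 from 124 and 58 counts; exact test, adjusted p = 4.31e-06).

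Of 20 receptor genes for collagens and laminins, 15 reached 1 TPM in both libraries, against 59.1% of nuclear protein-coding genes. None was called, against 2.83% of all genes. By the adjusted p of the exact test, 1 was higher in replicate 1 and 2 in replicate 2, where 11.5% and 15.7% of all genes tested were. Adgrg1, an adhesion receptor that binds type III collagen, had 71.98 TPM in replicate 1 and 71.26 TPM in replicate 2, Dag1, the laminin receptor dystroglycan, 57.75 and 58.42 TPM, Itgb1, the integrin beta chain shared by most matrix receptors, 39.73 and 38.49 TPM, and Sgcb, a sarcoglycan of the dystroglycan complex, 27.69 and 23.90 TPM. Of 13 proteases and inhibitors of matrix breakdown, 12 reached 1 TPM in both libraries and none was called, against the same 59.1% and 2.83%. By the adjusted p of the exact test, 2 were higher in replicate 1 and 3 in replicate 2, against the same 11.5% and 15.7%. The median log2 ratio of these 13 genes was 0.00. The median log2 ratio was 0.04 in the basement membrane partners, -0.03 in the biosynthesis genes and -0.01 in the receptors, all within 0.05 of the median over all genes tested.

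Several members lie side by side in the genome. The 3 type IV pairs are arranged head to head. Col4a1 and Col4a2 overlap by 22 bases at their starts, Col4a4 and Col4a3 are 71 bases apart on chromosome 1, and Col4a6 and Col4a5 are 1308 bases apart on the X chromosome. The gap between the starts of Col4a4 and Col4a3, chr1:82586850-82586920 in mm10, is shown on the minus strand, the strand of Col4a4, as the whole sequence between a pair with low levels.
Col4a4-Col4a3 gap: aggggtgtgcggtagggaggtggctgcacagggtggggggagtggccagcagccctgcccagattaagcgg
The head-to-head genes Col4a1 and Col4a2 were the most abundant members, and Col6a4, Col6a5 and Col6a6, which lie side by side on chromosome 9, all had means under 1 TPM. Other neighbours differed in level. Col4a5 exceeded Col4a6 3.80-fold on average and Col6a1 exceeded Col6a2, which lies 85161 bases away on the same strand, 2.82-fold. Col3a1 and Col5a2 lie tail to tail 24614 bases apart with 22.30 and 18.96 TPM for Col3a1 and 5.94 and 5.69 TPM for Col5a2 in replicate 1 and replicate 2.

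RefSeq promoter sequences, of which the 250 bases before each start were searched, matched 40 of the 55 members by symbol, in 44 windows. On either strand, GGGCGG, the core of the GC box, was present in 54.5% of the members' windows, against 44.1% of 20150 windows of nuclear protein-coding genes. CCAAT was present in 31.8%, against 35% in those windows, and TATAAA in 11.4% against 11.2%. A match is a description of the letters alone. The 100 bases before the RefSeq start are shown for a neuronal and a mesenchymal collagen of similar level, with GGGCGG in capitals, from mm10 on the plus strand. For Col25a1 this start, at 130180845, lies inside the gene of the M21 annotation, which begins at 130131501.
Col25a1, chr3:130180745-130180844: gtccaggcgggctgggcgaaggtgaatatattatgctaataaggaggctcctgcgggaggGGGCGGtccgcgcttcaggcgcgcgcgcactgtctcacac
Col3a1, chr1:45311438-45311537: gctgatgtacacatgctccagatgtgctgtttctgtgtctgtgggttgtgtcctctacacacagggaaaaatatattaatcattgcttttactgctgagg
The Col25a1 window holds a GC box and the Col3a1 window none. In the full 250 bases searched, Col25a1 also had CCAAT and Col3a1 had TATAAA.

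In 16 members, exons overlapped those of another gene, on the opposite strand in 13 and on the same strand in 3. Most of these partners had few counts. Exceptions beside the Col4a1 and Col4a2 pair were BX649560.1, given above with Col20a1, Tcfl5, with 64 and 66 counts across from Col9a3, Nt5dc1, with 31 and 43 counts across from Col10a1, and Gm47302, a microRNA gene within Col3a1 with 36.3 and 32.9 counts. No source used here says whether counting took strand into account, and reads in these overlaps are uncertain. The counts of 52 of 55 members were whole numbers within 0.005, so few of their reads were divided between genes. The others were Col3a1, with 2202.74 and 2079.09 counts, Col6a5 and Col6a6.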

How the data were processed

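Total RNA-seq of 2 hippocampus libraries was used, with genome build mm10 and annotation M21, per the file headers and labels. Expected counts are, per the file headers, estimated, not normalized read numbers of each gene or transcript, and TPM is, per the file headers, abundance per transcript length scaled to a fixed total. These come from tables called alignment-based here. A second, read-based transcript table deposited for each library gave estimated counts and TPM, which were summed per gene. No source used here names the programs. Expected counts were rounded for an exact conditional binomial test of replicate 1 against replicate 2, with TMM library sizes from edgeR 4.0.16 (ratio 0.977), genes of 10 or more counts over both libraries, a pseudocount of 0.5 and Benjamini-Hochberg adjustment. The test was checked on simulated data. Levels are means with SD over 2 libraries. Python 3.11.15 with scipy 1.17.1 was used, and size factors of DESeq2 1.42.0 in an alternative. Sequences came from GENCODE M21 and, for promoter windows, RefSeq. A member that enters the counts and sums is not reported here by name and is not drawn. The members and lists were chosen with earlier results of these data known. Named genes were all members with a mean of 1 TPM or more, both genes of each chain pair, called members, and in 3 lists of related genes the 4 highest and any called. Alternatives changed the table, the TPM denominator, thresholds, pseudocounts, scaling, filters and the library left out. The depths of 29858328 and 32275110 expected counts give intervals that cover counting error only.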

Additional observations from a re-analysis of the deposited data

How the results depend on the processing

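No paired analysis was possible because all samples belong to 1 group. The median member level of 3.80 TPM was 4.96 TPM in the read-based table, 8.47 TPM when TPM was rescaled over nuclear protein-coding genes, 3.00 TPM on transcripts of 1000 bases or more, an alternative chosen after seeing the data, and 3.41 to 4.19 TPM with either replicate left out. Members at 1 TPM numbered 32 to 46 under the other thresholds, tables and left-out replicates, against 36. The type IV share of collagen TPM was 35.4% in expected counts and 32.9% in the read-based table, and 29.5% to 30.5% without either replicate. Of the pairs with a sign shared by both libraries, Col1a1 over Col1a2 turned to -0.029 and Lama5 over Lama1 to -0.12 in the read-based table, and Col18a1 over Col15a1 to 0.0068 on long transcripts; the cause was not tested. The number of pairs led by their first gene was 10 to 13, against 11. The median leading share was 73.1% to 80.1% without either replicate.

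No member was called in the main setting, with the median of ratios, without the filter, at 50 counts or with a pseudocount of 2. With total counts 1 was called (Col24a1), with read-based counts 1 (Col24a1), with spike-in scaling 3 (Col24a1 and Col6a4 among them) and with a 1.5-fold threshold 4 (Lama3, Col24a1 and Col6a4 among them). Spike-in scaling moved the median log2 ratio of all genes by 0.28 and passed 36 members by adjusted p in place of 17, and under it Col6a1 turned to 0.079, Col6a3 to 0.045 and Lamb1 to 0.17. Calls over all genes numbered 582, 1276 with spike-in scaling, 317 at 50 counts, where fewer genes are tested, and 1168 at 1.5-fold. The comparison of the libraries could not be run with a replicate left out, since 1 library then remains. Depth limits the members under 1 TPM, whose counts ranged down to 5 and 4.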
